A study of Mus musculus with 7 samples.

Results

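The 38 genes described here encode enzymes and transporters that take up glucose, break it down to pyruvate and lactate, and store or release it as glycogen, among the 55450 genes in the deposited table of read counts. They were chosen by name, with earlier results of these data known. They comprised 5 genes of glucose entry and phosphorylation, 10 of upper glycolysis, 8 of lower glycolysis, 4 of lactate and 11 of glycogen. Within them, 5 isoforms typical of muscle (Pfkm, Eno3, Pgam2, Pygm and Aldoa) were set against 4 ubiquitous or hypoxia-responsive ones (Pfkp, Eno1, Hk2 and Slc2a1). All 38 carried enough reads to be tested, among 17959 genes tested in all. The skin came from wild type C57BL/6 male mice aged 24 months. The dorsal skin of 4 mice was covered for 5 days with the vehicle DMSO alone, and that of 3 mice with 5 µM ABT-263 (navitoclax, an inhibitor of anti-apoptotic Bcl-2 family proteins). Both groups shared the preparation of the skin, depilation (clippers, then Nair) and an ethanol wipe, as well as the semi-occlusive cover. Each mouse gave 1 library of polyA RNA.

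Glycolysis turns glucose into pyruvate in a chain of cytosolic steps, and most steps are shared among isoenzymes that differ in the tissue they serve. Skeletal muscle relies on its own forms of phosphofructokinase (Pfkm), phosphoglycerate mutase (Pgam2), enolase (Eno3) and glycogen phosphorylase (Pygm), while other cells use forms such as Pfkp, Pgam1, Eno1 and Pygl. Many of the ubiquitous forms, with the glucose transporter Slc2a1, are classical targets of the hypoxia-inducible factor HIF-1. Skin of the mouse back holds the keratinocytes of the epidermis, dermal fibroblasts, fat, and a thin sheet of striated muscle, the panniculus carnosus, and the libraries carried transcripts of both epidermis and muscle. The keratin gene Krt14 lay between 8427 and 24884 CPM (read counts scaled to library size, with TMM normalization) in the 7 mice, and the skeletal actin gene Acta1 between 8745 and 18200.5 CPM. In bulk tissue, fewer cells of a type and less RNA in each cell cannot be told apart.

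Total counts were 20344364 to 26824123 in the DMSO controls (mice 480 to 483) and 27325963 to 43562330 in the ABT-263-treated mice (476 to 478), so that every ABT-263 library was the larger. The labels name no batch. Mouse 476 had the most neutrophil and macrophage transcripts and mouse 480 the least muscle RNA of its group, and results that rest on 1 mouse are given below with and without it. Groups were compared with edgeR's quasi-likelihood test, with adjustment over all 17959 genes and a threshold of 0.05, and each adjusted p below is from that test. Log2 fold changes are of ABT-263 over DMSO and carry their standard error (SE). P-values measure the spread between mice, which the labels do not tie to cages or litters.

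Of the 38 genes, 7 were higher after ABT-263 (18.4%, beside 12.4% of all genes tested) and 1 was lower (2.63%, beside 11.7%). Together these 8 genes made up 21.1% of the members, and 24.2% of all genes tested passed in either direction, so the share that changed was close to that of the whole transcriptome. The genes that rose were the glucose transporter Slc2a3, the hexokinase Hk3, the phosphofructokinase Pfkp, the regulatory enzyme Pfkfb3, the phosphoglycerate mutase Pgam1, the phosphoglucomutase Pgm2 and the glycogen phosphorylase Pygl. The muscle phosphoglycerate mutase Pgam2 was the gene that fell. Among the 5 muscle isoforms, 1 passed as lower and the median log2 fold change was -0.50. Among the 4 ubiquitous or hypoxia-responsive isoforms, 1 passed as higher and the median was 0.57. Over all 38 members the median was 0.07, and over all genes tested it was 0.00. All ABT-263-treated mice lay above all DMSO controls in CPM for 7 members (18.4%, beside 18.7% of all genes tested) and below them for 2 members, Pgam2 and Gpi1 (5.26%, beside 18.4%).

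**Figure D1:**
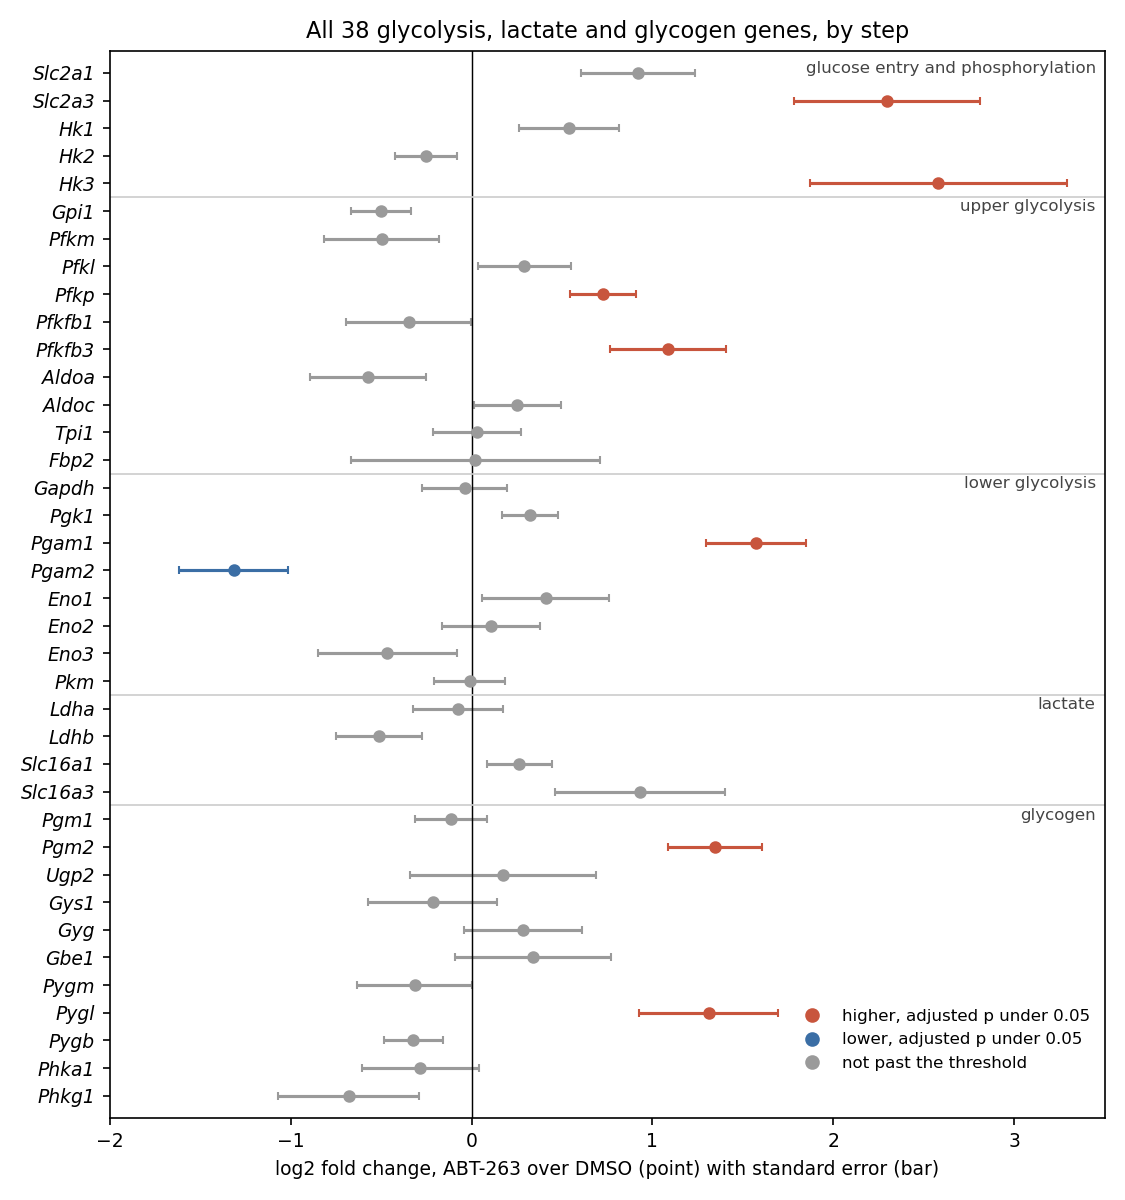
Log2 fold changes of ABT-263 over DMSO (x axis, points) with their standard errors (bars) for the 38 genes in the order of the steps they serve, from edgeR with 4 DMSO controls and 3 ABT-263-treated mice. The 7 genes that passed as higher are spread over 4 of the 5 steps, Pgam2 at -1.32 is the gene that passed as lower, and 30 genes did not pass.

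At the entry of glucose, 2 of 5 genes rose (40%, beside 12.4% of all genes tested). Slc2a3 encodes GLUT3, a transporter of high glucose affinity known from neurons and leukocytes. It stood at 2.99, 3.79, 3.03 and 4.07 CPM in DMSO controls 480 to 483 and at 33.1, 12.1 and 6.10 CPM in ABT-263-treated mice 476 to 478. The groups did not overlap, the ABT-263 values ranged widely, and mouse 476 was the highest. This gave a log2 fold change of 2.30 (SE 0.51, adjusted p = 0.0201). Without mouse 476 it was 1.40 (adjusted p = 0.0307), and the call was lost without control 482 (adjusted p = 0.0581) or control 483 (adjusted p = 0.0506).

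Hk3 encodes the hexokinase of myeloid cells. Its level was 6.30, 2.23, 4.62 and 3.86 CPM in the 4 controls and 58.0, 8.97 and 9.54 CPM in mice 476, 477 and 478. Again the groups were apart and mouse 476 held by far the highest value, with the other treated mice close to each other. Its log2 fold change was 2.58 (SE 0.71, adjusted p = 0.0371), and without mouse 476 it was 1.13 (adjusted p = 0.0806). Hk3 also missed the threshold when any 1 of the 4 controls was left out, with adjusted p of 0.0544 to 0.0883.

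The other 3 genes of glucose entry did not pass. Slc2a1, which encodes GLUT1, the main glucose transporter of keratinocytes and a HIF-1 target, was at 147, 69.7, 113 and 75.3 CPM in the controls and at 238, 213 and 124 CPM after ABT-263. Only mouse 478 lay within the range of the controls, because control 480 was above it. Slc2a1 differed by 0.92 (SE 0.31, adjusted p = 0.0657) on the log2 scale. It passed in 1 of the 7 fits that each left out 1 mouse, that without control 480 (1.16, adjusted p = 0.0329). In the others the adjusted p was 0.0562 to 0.194. Hk1, the housekeeping hexokinase, was at 116, 49.2, 67.8 and 61.8 CPM against 105, 122 and 94.2 CPM, which made a log2 fold change of 0.54 (SE 0.28, adjusted p = 0.183). Hk1 too passed only when control 480 was left out (0.84, adjusted p = 0.0174). In the other fits without 1 mouse its adjusted p was 0.230 to 0.352. Hk2, the inducible hexokinase of muscle, fat and growing cells, was at 226, 185, 234 and 258 CPM in the controls and 222, 161 and 185 CPM after ABT-263. The log2 change of Hk2, -0.25 (SE 0.17, adjusted p = 0.301), had the opposite sign to those of the other genes of this step.

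Hexokinase transcripts are best compared per length of their exons. Per kilobase, Hk2 made up 71.2% to 83.9% of the transcripts of the 3 hexokinases in the controls and 57.0% to 69.5% after ABT-263, and these ranges did not overlap. Hk3 made up 1.63% to 3.22% and 5.57% to 24.2%, and Hk1 14.1% to 25.6% and 18.9% to 32.7%. By this measure Hk2 ranked first of the 3 in every mouse. The length used was that of all annotated exons of a gene merged (8532 bases for Hk1, 5969 for Hk2). It can differ from the length of the transcripts present, and the shares depend on it. These shares are descriptions and were not tested.

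Of the 10 genes of upper glycolysis, 2 rose (20%, beside 12.4% of all genes tested), Pfkp and Pfkfb3. Phosphofructokinase commits the sugar to glycolysis and is built from a muscle (Pfkm), a liver (Pfkl) and a platelet (Pfkp) subunit. Pfkp was at 98.6, 64.8, 64.2 and 69.9 CPM in the controls and at 136, 127 and 106 CPM after ABT-263. The lowest treated mouse was just above control 480, which itself stood apart from the 3 other controls. On the log2 scale Pfkp changed by 0.73 (SE 0.18, adjusted p = 0.0272). Over the fits that left out each mouse in turn the change was 0.65 to 0.89, but the call held in 2 of these 7 fits, those without control 480 or mouse 478. In the others the adjusted p was 0.0581 to 0.0779. Pfkm was at 872, 1251, 1315 and 1776 CPM in the controls against 658, 797 and 1318 CPM after ABT-263. Mouse 478 lay inside the range of the controls while mice 476 and 477 lay below it, for a log2 fold change of -0.50 (SE 0.32, adjusted p = 0.279). Pfkl was at 199, 100.1, 149.9 and 132 CPM in the controls and 218, 185 and 130.1 CPM after ABT-263, and did not pass (0.29, SE 0.26, adjusted p = 0.431). Of the exon bases of Pfkm, 10.2% also belong to another annotated gene on its strand.

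Pfkfb3 makes fructose 2,6-bisphosphate, the strongest activator of phosphofructokinase, and is induced by hypoxia and inflammatory signals. It was at 24.7, 14.6, 20.3 and 29.7 CPM in the controls and 70.8, 31.4 and 40.02 CPM in the treated mice, so that mouse 477 was only slightly above control 483. Its log2 fold change was 1.09 (SE 0.32, adjusted p = 0.0441), and 0.68 (adjusted p = 0.127) without mouse 476. Of the 7 fits that each left out 1 mouse, Pfkfb3 passed only in that without mouse 477. Pfkfb1, the form of liver and muscle, was at 5.28 to 15.7 CPM and 6.40 to 10.1 CPM (-0.35, SE 0.35, adjusted p = 0.488).

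Aldoa, the aldolase of muscle and most other cells, had the highest counted level of the 38 genes per kilobase of exon. Members with near-identical copies, such as Gapdh and Pgk1, lost the reads shared with them, so their true rank is not known. It was at 5633, 6088, 7474 and 11551 CPM in the controls and 4979, 4490.2 and 6027 CPM after ABT-263. Control 483 was far above the rest and mouse 478 overlapped the lower controls, and the log2 fold change was -0.57 (SE 0.32, adjusted p = 0.215). Gpi1, which converts glucose 6-phosphate to fructose 6-phosphate, was at 686, 575, 748 and 772 CPM in the controls and 520.3, 487 and 466 CPM after ABT-263. Every treated mouse was below every control, yet Gpi1 missed the threshold (log2 fold change -0.50, SE 0.17, adjusted p = 0.0601). The DESeq2 Wald test called Gpi1 lower, as did edgeR once the trends of each library on length and GC were taken out. It passed in 0 of the 7 fits without 1 mouse. With the counts of its near-identical copy added, the log2 fold change was -0.41 (adjusted p = 0.111). The aldolase of brain, Aldoc (log2 fold change 0.25), the triose phosphate isomerase Tpi1 (0.03) and the muscle fructose bisphosphatase Fbp2 (0.02) had adjusted p of 0.467, 0.944 and 0.985. Aldoc was at 20.01, 11.7, 13.0 and 12.9 CPM in the controls and 13.4, 21.7 and 16.4 CPM after ABT-263. Fbp2 was the most variable of the 3, at 13.3, 17.2, 35.3 and 99.0 CPM in the controls and 26.0, 38.4 and 61.1 CPM in the treated mice.

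In lower glycolysis the mutase step held both the gene that fell and the gene with the smallest adjusted p among those that rose. Phosphoglycerate mutase moves the phosphate of 3-phosphoglycerate to the neighbouring carbon, with Pgam2 as the form of skeletal and cardiac muscle and Pgam1 as the form of other tissues. Pgam2 was at 716, 989.7, 1378 and 1598 CPM in the controls and 421, 428 and 561 CPM after ABT-263. Every treated mouse lay below every control, and the treated mice were closer to each other than the controls were. Pgam2 changed by -1.32 (SE 0.30, adjusted p = 0.0199) on the log2 scale, or 2.49-fold lower. Over the 7 fits without 1 mouse it was -1.49 to -1.13, and the call held in 5 of them. The adjusted p was 0.0610 without mouse 476 and 0.0572 without control 482. Pgam1 was at 5.36, 2.40, 3.85 and 3.37 CPM in the controls and 12.3, 11.9 and 9.26 CPM after ABT-263. All 3 treated mice had more than any control, and the treated values were near each other. On the log2 scale Pgam1 changed by 1.57 (SE 0.28, adjusted p = 0.00988), and it passed in each of the 7 fits without 1 mouse (1.41 to 1.80). Pgam1 shares its sequence with a processed pseudogene, which is described with the copies further on.

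The promoter windows of this pair are shown because the genes of the mutase step changed in opposite directions. Those of Pfkp, which rose among the 4 ubiquitous or hypoxia-responsive isoforms, and of Pgm2, which passed in every fit without 1 mouse, are added for comparison. Each runs from 250 bases before to 50 bases after a RefSeq transcript start on GRCm38.p6 and is written 5′ to 3′ along the gene's strand. Capitals mark ACGTG and GCGTG, the forms of the core of the HIF-1 response element, and CAGCTG, an E-box of the kind that muscle regulatory factors bind, each searched on both strands. Pgam2 is on the minus strand at chr11:5803747-5804046, Pgam1 on the plus strand at chr19:41911621-41911920, Pfkp on the minus strand at chr13:6648722-6649021 and Pgm2 on the plus strand at chr5:64092689-64092988.
Pgam2: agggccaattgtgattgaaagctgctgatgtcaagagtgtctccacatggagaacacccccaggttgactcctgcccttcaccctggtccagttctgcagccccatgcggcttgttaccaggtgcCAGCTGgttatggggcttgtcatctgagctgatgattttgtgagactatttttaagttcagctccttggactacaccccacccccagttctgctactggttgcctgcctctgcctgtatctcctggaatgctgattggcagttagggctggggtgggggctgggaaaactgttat
Pgam1: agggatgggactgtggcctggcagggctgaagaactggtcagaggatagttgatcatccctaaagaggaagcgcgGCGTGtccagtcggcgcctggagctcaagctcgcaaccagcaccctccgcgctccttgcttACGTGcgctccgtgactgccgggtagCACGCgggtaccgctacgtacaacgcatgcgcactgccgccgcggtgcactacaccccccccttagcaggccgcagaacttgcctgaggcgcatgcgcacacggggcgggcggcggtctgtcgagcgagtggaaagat
Pfkp: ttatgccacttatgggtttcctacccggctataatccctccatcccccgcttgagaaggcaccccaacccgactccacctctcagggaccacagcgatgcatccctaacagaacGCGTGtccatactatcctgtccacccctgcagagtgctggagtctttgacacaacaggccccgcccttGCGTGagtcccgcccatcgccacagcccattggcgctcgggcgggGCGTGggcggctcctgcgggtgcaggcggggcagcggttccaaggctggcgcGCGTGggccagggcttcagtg
Pgm2: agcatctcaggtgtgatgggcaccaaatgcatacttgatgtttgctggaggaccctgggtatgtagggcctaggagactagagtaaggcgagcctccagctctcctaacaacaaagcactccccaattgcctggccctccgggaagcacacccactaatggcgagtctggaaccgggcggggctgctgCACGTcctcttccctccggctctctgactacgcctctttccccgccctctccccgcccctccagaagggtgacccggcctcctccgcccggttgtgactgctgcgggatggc

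The Pgam2 window held 1 CAGCTG and neither of the other motifs. The Pgam1 window held 1 ACGTG and 2 GCGTG, that of Pfkp 4 GCGTG, and that of Pgm2 1 ACGTG. RefSeq windows were found for 37 of the 38 genes, 53 windows in all, since some genes have several starts, and some of these overlap. ACGTG was in 49.1% of the 53 windows and in 19.6% of all 32851 promoter windows, GCGTG in 49.1% and 32.4%, and CAGCTG in 20.8% and 16.3%. These are matches of letters and not binding sites, and the windows of genes that did not change hold them too: Ldha had 5 ACGTG in its first window, Pfkm 3 and Pygm 2 CAGCTG.

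The other genes of lower glycolysis did not pass. Eno3, the muscle enolase, was at 1010.2, 1621, 2536 and 2858 CPM in the controls and 1381, 1058 and 1921 CPM after ABT-263 (log2 fold change -0.46, SE 0.38, adjusted p = 0.3998). Eno1, the ubiquitous enolase, was at 311, 110.3, 178 and 152 CPM in the controls and 266, 308 and 175 CPM after ABT-263 (log2 fold change 0.41, SE 0.35, adjusted p = 0.420). For both enolases the 2 groups overlapped, with control 480 the lowest of its group for Eno3 and the highest for Eno1. The neuronal enolase Eno2 was scarce, at 2.58 to 4.94 CPM over all mice (0.11, SE 0.27, adjusted p = 0.794). Pkm, the pyruvate kinase of muscle and of most adult tissues other than liver and red cells, was at 1722 to 2208 CPM and 1776 to 2216 CPM (-0.01, SE 0.20, adjusted p = 0.977). Pgk1, a HIF-1 target that yields the first ATP of the pathway, was at 40.4 to 50.8 CPM and 45.5 to 65.9 CPM (0.32, SE 0.16, adjusted p = 0.156). Its level is uncertain, since Pgk1-rs7 is 100% identical to it over 1255 bases and pairs that align to both were not counted. Gapdh was listed at only 9.08 to 15.4 CPM, and its level is uncertain because the authors kept uniquely aligned pairs and 76 annotated genes carry a near-identical copy of it.

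**Figure D2:**
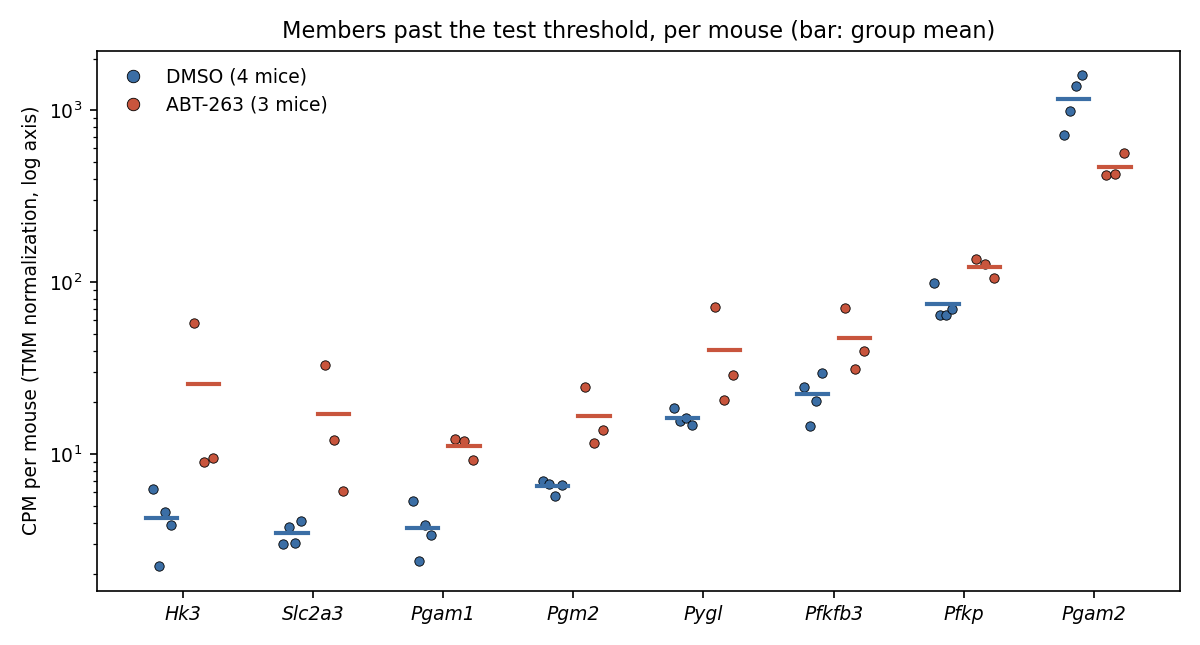
CPM of each mouse (points, log axis) for the 8 genes that passed the threshold, with the mean of the 4 DMSO controls and of the 3 ABT-263-treated mice as bars. The groups do not overlap for any of the 8, and mouse 476 is the highest ABT-263 point of each of the 7 genes that rose.

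Pgam2 was the only muscle isoform to pass, and its level was set against that of the others within each mouse. As Pgam2 was picked for this because it had fallen most of the 5, the ratios are a description with no test. The log2 ratio of Pgam2 to Pfkm was -0.29, -0.34, 0.07 and -0.15 in controls 480 to 483 and -0.64, -0.90 and -1.23 in mice 476 to 478, a difference of -0.75. Against Eno3, Pygm and Aldoa the differences were -0.87, -0.93 and -0.74. In none of these 4 ratios did the groups overlap. Against the summed CPM of 20 skeletal muscle markers, the log2 ratio of Pgam2 differed by -0.50, with the highest treated mouse barely below the lowest control. The same ratio differed by 0.42 for Pygm, with the treated mice above the controls. For Pfkm (0.24), Eno3 (0.36) and Aldoa (0.23) the groups overlapped.

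**Figure D3:**
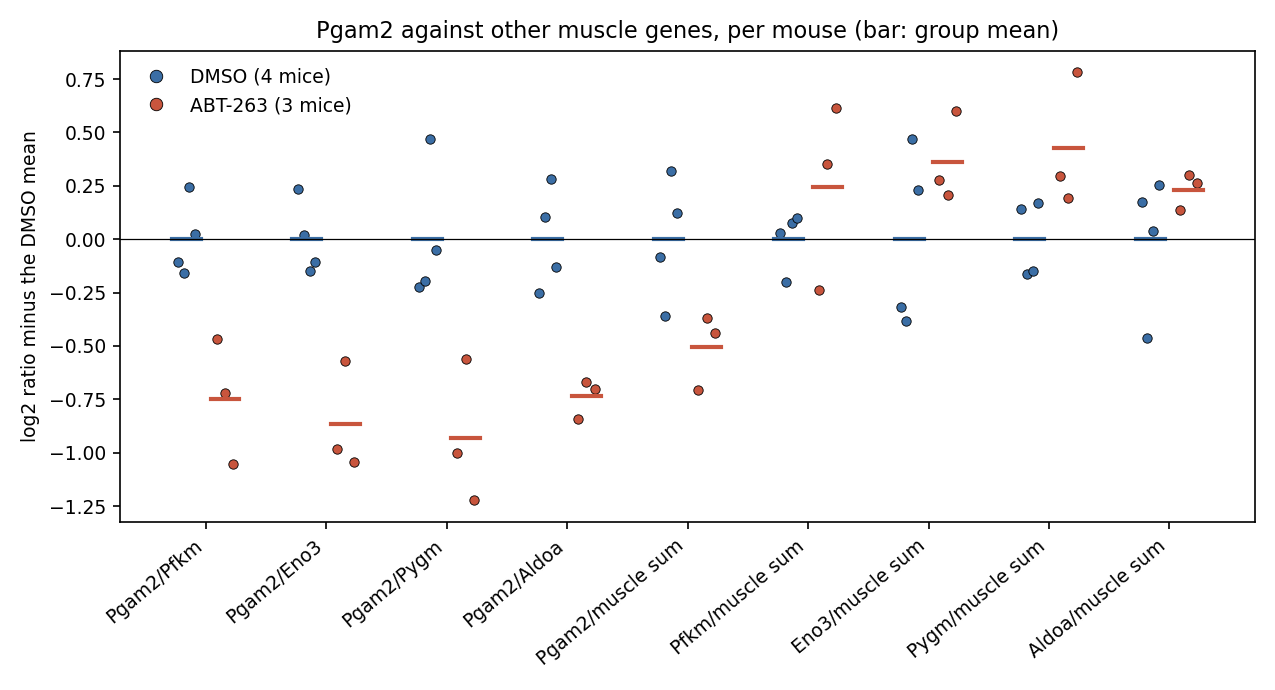
Log2 ratios within each mouse (points), shown as the distance from the mean of the DMSO controls, for Pgam2 over 4 other muscle isoforms and for each of the 5 over the summed CPM of 20 skeletal muscle markers (muscle sum), with group means as bars. The ABT-263 points of the 5 ratios with Pgam2 on top lie below all DMSO points, while those of Pygm over the muscle sum lie above them.

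The skeletal muscle markers themselves moved unevenly. Of the 20, 7 passed as lower and none as higher (11.7% and 12.4% of all genes tested), at a median log2 fold change of -0.81, and 10 passed as lower without control 480 but only 3 to 4 without any other 1 mouse. Their summed level was 50357 to 97605 CPM after DMSO and 36749 to 50666 CPM after ABT-263, and control 480, the lowest of its group, was just below treated mouse 478. The fast troponin gene Tnnc2 was at 6537, 10958, 10673 and 12489 CPM in the controls and 3319, 3198 and 3221 CPM after ABT-263 (log2 fold change -1.65, SE 0.30, adjusted p = 0.0104). The calcium-binding parvalbumin gene Pvalb (-3.33, SE 0.56, adjusted p = 0.00942) and the calsequestrin gene Casq1 (-1.44, SE 0.26, adjusted p = 0.0103) fell as well. The other 4 that fell were Mb (-1.45), Tnni2 (-1.28), Tnnt3 (-1.16) and Ttn (-1.01). Beside all 20 markers, which ranged from -3.33 to 0.39, the log2 change of Pgam2, -1.32, was below the median of -0.81. The muscle creatine kinase Ckm did not pass (-1.03, SE 0.34, adjusted p = 0.0576), and nor did Acta1 (-0.43, SE 0.32, adjusted p = 0.348) or the fast myosin gene Myh4 (-0.46, SE 1.17, adjusted p = 0.798). Myh4 ranged from 172 to 6463 CPM over the 7 mice, with low and high values in both groups. The part of muscle content in the change of Pgam2 was not tested.

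No gene of lactate handling passed (beside 24.2% of all genes tested). Ldha, the lactate dehydrogenase subunit of muscle and a HIF-1 target, was at 1480.3, 1225, 2072 and 2163 CPM in the controls and 1828, 1499 and 1615 CPM after ABT-263 (-0.07, SE 0.25, adjusted p = 0.850). Ldhb, the heart subunit, was at 146, 163, 209.8 and 226 CPM and 96.3, 122 and 173 CPM (-0.51, SE 0.24, adjusted p = 0.148). All treated mice but 478 were below the controls for Ldhb, while Ldha overlapped throughout. Slc16a3 encodes MCT4, which exports lactate from glycolytic cells, and was at 77.2, 46.7, 96.0 and 139.6 CPM in the controls and 299, 104 and 111 CPM after ABT-263. The log2 change of Slc16a3, 0.93 (SE 0.47, adjusted p = 0.178), rested on mouse 476 and was 0.27 without it. Slc16a1, which encodes the lactate carrier MCT1, was at 85.8, 63.1, 89.4 and 95.4 CPM and 118, 85.5 and 96.8 CPM (0.26, SE 0.18, adjusted p = 0.306).

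Of the 11 genes of glycogen, Pgm2 and Pygl rose (18.2%, beside 12.4% of all genes tested) and none fell (beside 11.7%). Pgm2 belongs to the phosphoglucomutases, which link glucose 6-phosphate and glucose 1-phosphate, and it also acts on pentose phosphates. It was at 6.997, 6.74, 5.75 and 6.66 CPM in the controls and 24.5, 11.6 and 13.8 CPM after ABT-263. The controls lay close together and every treated mouse was well above them, mouse 476 most of all. On the log2 scale Pgm2 changed by 1.35 (SE 0.26, adjusted p = 0.0128), and Pgm2 passed in each of the 7 fits without 1 mouse (0.96 to 1.58). Pgm1, the main phosphoglucomutase of muscle, was at 137 to 216 CPM and 125 to 184 CPM (-0.11, SE 0.20, adjusted p = 0.704). Per kilobase of exon, Pgm2 made up 3.36% to 5.45% of both transcripts in the controls and 7.80% to 15.2% after ABT-263.

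Glycogen phosphorylase, which cuts glucose 1-phosphate from glycogen, has a muscle (Pygm), a liver (Pygl) and a brain (Pygb) form. Pygl was at 18.7, 15.5, 16.2 and 14.8 CPM in the controls and 71.9, 20.7 and 28.9 CPM after ABT-263. All treated mice were above the controls, with mouse 477 close to control 480 and mouse 476 far above the rest. Pygl thereby had a log2 fold change of 1.31 (SE 0.39, adjusted p = 0.0436), and without mouse 476 it was 0.61 (adjusted p = 0.0660). Like Pfkfb3, it passed only without mouse 477 among the fits that each left out 1 mouse. Pygm was at 714, 969.5, 850.0 and 1413 CPM in the controls and 722, 540.4 and 1119.9 CPM after ABT-263, with overlapping groups (-0.31, SE 0.32, adjusted p = 0.496). Pygb was at 84.3, 67.3, 67.5 and 89.6 CPM and 51.0, 66.2 and 68.1 CPM (-0.32, SE 0.16, adjusted p = 0.181). In every mouse Pygm made up most of the phosphorylase transcripts per kilobase, 91.6% to 95.5% in the controls and 90.9% to 94.99% after ABT-263, while the share of Pygl was 0.466% to 1.12% and 1.14% to 4.25%.

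The genes that make glycogen did not pass. Ugp2, which activates glucose as UDP-glucose, the glycogen primer Gyg, the muscle glycogen synthase Gys1 and the branching enzyme Gbe1 had log2 fold changes of 0.18, 0.29, -0.21 and 0.34, with adjusted p of 0.826, 0.546, 0.687 and 0.590. All 4 were lowest in control 480, and Ugp2 spread from 98.9 CPM there to 473 CPM in treated mouse 478. The muscle subunits of phosphorylase kinase, Phka1 and Phkg1, had log2 fold changes of -0.28 and -0.68, with overlapping groups and adjusted p of 0.549 and 0.230.

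Isoforms of one step were compared within each mouse as the log2 ratio of their CPM, in 11 ratios. With 4 mice against 3, a two-sided exact permutation test cannot give a p below 0.0286, so no ratio could pass 0.05 after adjustment over 11 unless at least 7 reached that value. Pgam2 over Pgam1 was the ratio that separated the groups. It was 7.06, 8.69, 8.48 and 8.89 in controls 480 to 483 and 5.09, 5.17 and 5.92 in mice 476 to 478, a difference of -2.89 (exact permutation p = 0.0286, adjusted 0.279). On the linear scale the ratio was 7.39 times lower after ABT-263, and the difference lay between -3.29 and -2.68 when each mouse was left out. Pgam2 made up 98.8% to 99.3% of the mutase transcripts per kilobase after ABT-263, beside 99.7% to 99.9% in the controls. The level of Pgam1, and with it this share and the ratio, is uncertain, since Pgam1-ps2 is 100% identical to it over 765 of its bases and pairs that align to both were not counted.

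In 6 other ratios one of the 5 muscle isoforms was on top, and the groups overlapped in each. Pfkm over Pfkp was 3.15, 4.27, 4.36 and 4.67 in the controls and 2.27, 2.65 and 3.64 in the treated mice, a difference of -1.26 (exact permutation p = 0.0857, adjusted 0.279). Eno3 over Eno1 was 1.70, 3.88, 3.83 and 4.23 and 2.38, 1.78 and 3.46, a difference of -0.87 (exact permutation p = 0.286, adjusted 0.314). In both, control 480 was the lowest control and mouse 478 the highest treated mouse. Control 480 lay within the range of the treated mice for the first ratio and below all of them for the second. Pygm over Pygl differed by -1.44, Aldoa over Aldoc by -0.78 and Pfkm over Pfkl by -0.82, with exact permutation p of 0.0857, 0.171 and 0.229. Pygm over Pygb was level at a difference of -0.01. Among the other 4 ratios, Ldha over Ldhb, the muscle over the heart subunit, differed by 0.49 and so had the opposite sign. Hk2 over Hk1 differed by -0.86, Slc2a1 over Slc2a3 by -1.04 and Slc16a3 over Slc16a1 by 0.59. Exact permutation p of these 4 were 0.143, 0.114, 0.229 and 0.20, and the groups overlapped in each.

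**Figure D4:**
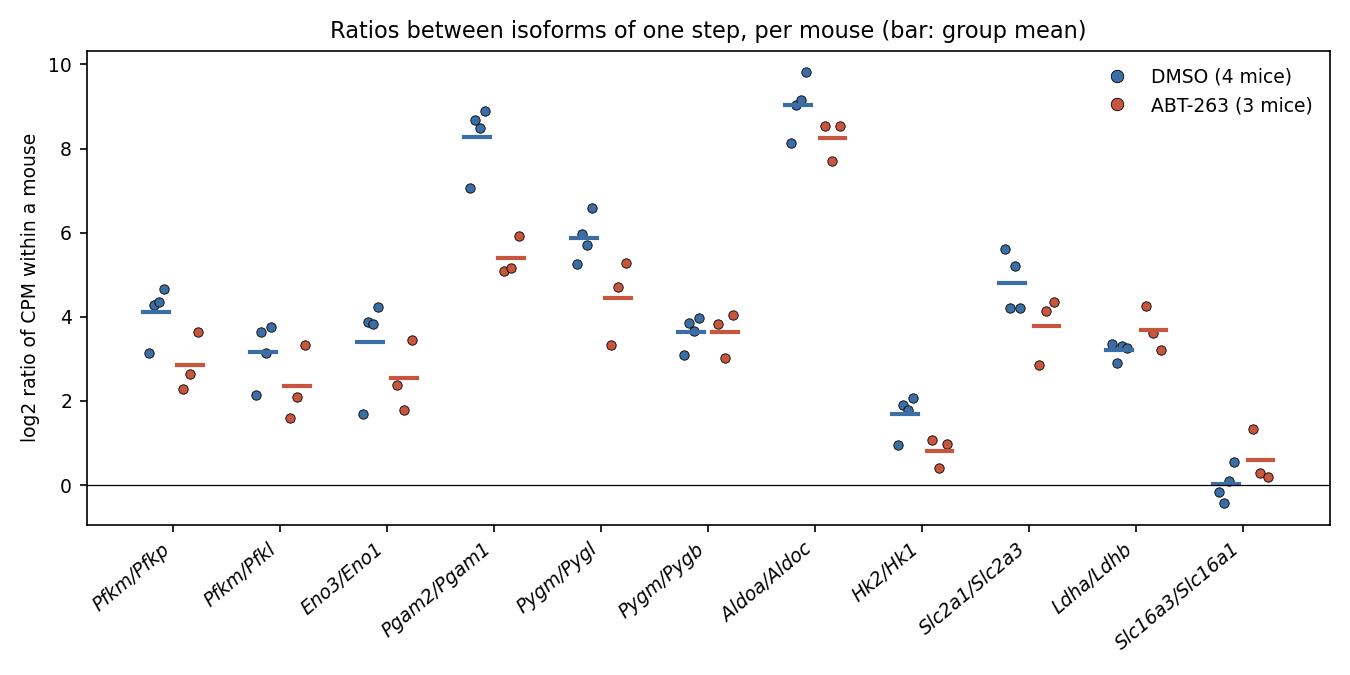
Log2 ratios of the CPM of 2 isoforms of one step within each mouse (points) for 11 pairs, with the means of the 4 DMSO controls and of the 3 ABT-263-treated mice as bars. Pgam2 over Pgam1 is the pair in which the groups do not overlap, at 7.06 or more in the controls and 5.92 or less after ABT-263.

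Per kilobase of exon, Pfkm, Eno3, Aldoa and Ldha each held most of the reads counted at their step in both groups. Aldoa also serves most other cells, so its share does not single out muscle. The shares depend on the merged exon lengths used, 3340 bases for Pfkm, 6675 for Pfkl and 13401 for Pfkp, and 1739 for Eno3 and 5379 for Eno1. Pfkm made up 87.6% to 95.5% of the phosphofructokinase transcripts in the controls and 82.2% to 93.5% after ABT-263, Eno3 90.9% to 98.3% and 91.3% to 97.0% of the enolase transcripts, and Aldoa at least 99.6% of the aldolase transcripts in every mouse. Ldha made up at least 78.0% of the lactate dehydrogenase transcripts in every mouse. For these 4 forms the ranges of the groups overlapped. The enolase shares are uncertain, as Eno1 has copies of 99.6% identity over 1302 bases (Gm4735) and 99.5% over 1736 bases (Eno1b) whose shared reads were not counted, while Eno3 has none. The counted level of Aldoa per kilobase was 1935 to 3968 CPM in the controls and 1542 to 2070.4 CPM after ABT-263. In the mean of the controls, the next counted levels were those of Pgam2 (852 to 1902 and 501 to 668 CPM per kilobase) and Eno3 (581 to 1644 and 609 to 1105 CPM per kilobase). Among the controls the ranges of Pgam2 and Eno3 overlapped, and after ABT-263 Pgam2 was below Eno3 in each mouse.

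Genes next to these pathways were counted from lists of their own. Of 22 other genes of glycolysis and gluconeogenesis, 19 could be tested, with a median log2 fold change of 0.07. Of these, 4 passed as higher (21.1%, beside 12.4% of all genes tested) and none as lower (beside 11.7%). Pfkfb4, a relative of Pfkfb3 and a hypoxia target, was at 17.8, 14.5, 17.9 and 17.7 CPM in the controls and 40.7, 26.2 and 36.5 CPM after ABT-263 (1.02, SE 0.17, adjusted p = 0.00912). Pck2, the mitochondrial form of the gluconeogenic enzyme PEPCK, changed by 0.70 (SE 0.15, adjusted p = 0.0176) on the log2 scale, and its cytosolic form Pck1 by 2.48 (SE 0.66, adjusted p = 0.0336). When 1 mouse was left out, 1 to 4 of the list passed as higher, the fewest without mouse 476 and 2 without mouse 478 or any 1 control.

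Of 18 other glycogen genes, 17 could be tested, with a median of -0.05. Of these, 3 passed as lower (17.6%, beside 11.7% of all genes tested) and none as higher (beside 12.4%). The glycogen synthase kinase Gsk3b was at 68.2, 68.7, 71.4 and 69.4 CPM in the controls and 45.4, 54.0 and 44.0 CPM after ABT-263 (-0.54, SE 0.12, adjusted p = 0.0174). The phosphorylase kinase subunit Phkg2 (-0.53, SE 0.12, adjusted p = 0.0221) and the glycogen-binding protein Stbd1 (-0.95, SE 0.27, adjusted p = 0.0375) were the others. Up to 4 of these passed as lower when 1 mouse was left out, but 1 did without control 483 and 0 without mouse 478. Of 13 genes of pyruvate import and the pyruvate dehydrogenase complex, 2 passed as lower (15.4%, beside 11.7% of all genes tested) and none as higher, with a median of 0.20. Pdhb, the beta subunit of its first enzyme, was at 133, 185, 192 and 183 CPM in the controls and 90.7, 100.2 and 94.2 CPM after ABT-263 (-0.86, SE 0.16, adjusted p = 0.0108), and the activating phosphatase Pdp2 fell too (-0.82, SE 0.20, adjusted p = 0.0255). Of the 7 genes of the pentose phosphate pathway, 2 passed as lower and 1 as higher (together 42.9%, beside 24.2% of all genes tested), with a median of -0.46. Rpia (-0.77, SE 0.12, adjusted p = 0.00818) and Pgls (-0.80, SE 0.16, adjusted p = 0.0134) fell, and Rpe (0.68, SE 0.18, adjusted p = 0.0291) rose. With 1 mouse left out, 1 to 4 genes of pyruvate dehydrogenase (the most without control 480) and 2 to 3 of the pentose phosphate pathway passed as lower. The call of Rpe was lost in 4 of the 7 fits, those without control 482 or 483 or mouse 476 or 478.

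Of 20 hypoxia response genes outside glycolysis, 9 passed as higher (45%, beside 12.4% of all genes tested) and none as lower (beside 11.7%). Their median log2 fold change was 0.68. When 1 mouse was left out 3 to 11 passed as higher, with 3 to 4 in the fits without control 481, 482 or 483 or mouse 476. Hif1a, which encodes the oxygen-regulated subunit of HIF-1, was at 36.7, 28.5, 34.0 and 36.7 CPM in the controls and 146, 72.1 and 93.5 CPM after ABT-263 (1.61, SE 0.23, adjusted p = 0.00681). The peptide hormone gene Adm (2.34, SE 0.41, adjusted p = 0.0107) and the angiogenic factor gene Vegfa (1.34, SE 0.29, adjusted p = 0.0173) rose as well. Adm and Vegfa are also known to be induced in inflammation. Of the 7 members called hypoxia-responsive or HIF-1 targets above, Pfkp (0.73) and Pfkfb3 (1.09) passed as higher, beside 12.4% of all genes tested. This count covers only the members so named. The 5 that did not pass were Slc2a1 (0.92), Pgk1 (0.32), Eno1 (0.41), Ldha (-0.07) and Hk2 (-0.25). Whether the lists differ was not tested.

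Markers of other cells moved between the groups. Of the tested markers, 62.5% passed as higher for macrophages, 50% for neutrophils and 37.5% for fibroblasts, beside 12.4% of all genes tested. For keratinocytes 10% passed as lower, beside 11.7%. Of 8 macrophage markers 5 passed as higher, with Csf1r, Lyz2 and Adgre1 at the smallest p, at a median log2 fold change of 1.39. Their summed level was 433 to 1285 CPM after DMSO and 1443 to 4380.0 CPM after ABT-263. Of the 6 neutrophil markers that could be tested 3 passed as higher, with a median of 3.36 and a summed level of the 8 markers of 100.4 to 1822 CPM after DMSO and 5098 to 8382 CPM after ABT-263. Ly6g, which defines mouse neutrophils, was at 0, 0.253, 0 and 0.123 CPM in the controls and 14.0, 0.101 and 0.172 CPM in the treated mice. Most of the sum came from S100a8 and S100a9, which stressed keratinocytes also make, with S100a9 at 1285, 38.01, 974 and 384 CPM in the controls and 5016, 3355 and 3453 CPM in the treated mice. Mmp8 (59.1, 0.807 and 1.29 CPM in the treated mice) and Camp (4.58, 0.101 and 0.258 CPM) were, like Ly6g, near 0 in mice 477 and 478. The markers that passed were S100a8, Csf3r and Retnlg. Csf3r was at 3.72, 1.35, 1.75 and 3.25 CPM in the controls and 78.0, 12.4 and 10.7 CPM in the treated mice. Retnlg was at 0.409, 0.0843, 0.308 and 1.03 CPM in the controls and 232, 2.09 and 3.03 CPM in the treated mice. Cxcr2 did not pass, but its treated mice (66.4, 13.6 and 14.2 CPM) were all above the controls (12.7 CPM or less). All 7 members that rose had their highest value in mouse 476 too. Of 8 fibroblast markers 3 passed as higher, Lum, Pdgfra and Col1a2 (summed level 3881 to 5457 CPM after DMSO and 6203 to 8738 CPM after ABT-263), and of 10 keratinocyte markers 1 passed as lower, the basal keratin gene Krt15, with a summed level of 29338 to 70080.0 CPM after DMSO and 20164 to 61062 CPM after ABT-263. None of the 8 adipocyte markers passed, nor any of the 5 erythrocyte markers tested, whose medians were 0.71 and 1.89. The summed levels of these were 816 to 2682 CPM after DMSO and 953 to 3561 CPM after ABT-263 for adipocytes and 158 to 276 CPM after DMSO and 135 to 1750.2 CPM after ABT-263 for erythrocytes, with the top erythrocyte value in mouse 476. With 1 mouse left out, 0 to 4 macrophage, 1 to 3 neutrophil and 2 to 4 fibroblast markers passed as higher, and the fit with 0 macrophage markers was that without control 483. Krt15 lost its call in 5 of these 7 fits, all but those without control 480 or mouse 477. Without mouse 476, 1 erythrocyte marker passed as lower. The part of these cells in the changes of the members was not tested.

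Near-identical copies, mostly processed pseudogenes, touch 9 of the 38 genes (at least 95% identity over at least 300 bases of the longest coding transcript), and 29 have none. Because only uniquely aligned pairs were counted, a read that fits both a gene and its copy is missing from both. The share of the copies in the summed CPM of gene and copies was higher in every ABT-263-treated mouse than in every control for all 9 genes. For Pgam1 and its single copy Pgam1-ps2 this share was 11.5, 17.4, 7.41 and 7.87% in the controls and 30.0, 28.4 and 38.3% in the treated mice. For Pkm it was 5.70% to 6.41% and 9.81% to 10.6%, for Eno1 9.07% to 9.54% and 13.9% to 15.4%, and for Gapdh 64.3% to 72.0% and 73.4% to 78.5%. Exact permutation p were 0.0286 for 7 of the 9 genes and 0.0571 for Gapdh and Ldhb, or 0.0367 and 0.0571 after adjustment over the 9. As the copies were chosen after their values were seen, these p are a description and not a test of a pattern set in advance.

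The copies were 91 genes, 76 of them of Gapdh. Of the 46 that could be tested, 8 passed as higher and none as lower (12.4% and 11.7% of all genes tested). Pgam1-ps2 changed by 3.53 on the log2 scale (SE 0.34, adjusted p = 0.00578), more than Pgam1 itself. Gm6560, a copy of Pkm, changed by 0.81 (SE 0.12, adjusted p = 0.00726), beside -0.01 for Pkm. Over all 1374 processed pseudogenes tested, 21.9% passed as higher and 12.2% as lower. With the counts of the copies added to each gene, an alternative chosen after seeing the data, the same 8 members passed, and the log2 fold change of Pgam1 was 1.97 (SE 0.25, adjusted p = 0.00623). For Gapdh the value moved from -0.04 to 0.38 and did not pass either way. Why the copies differ from their parents was not tested.

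**Figure D5:**
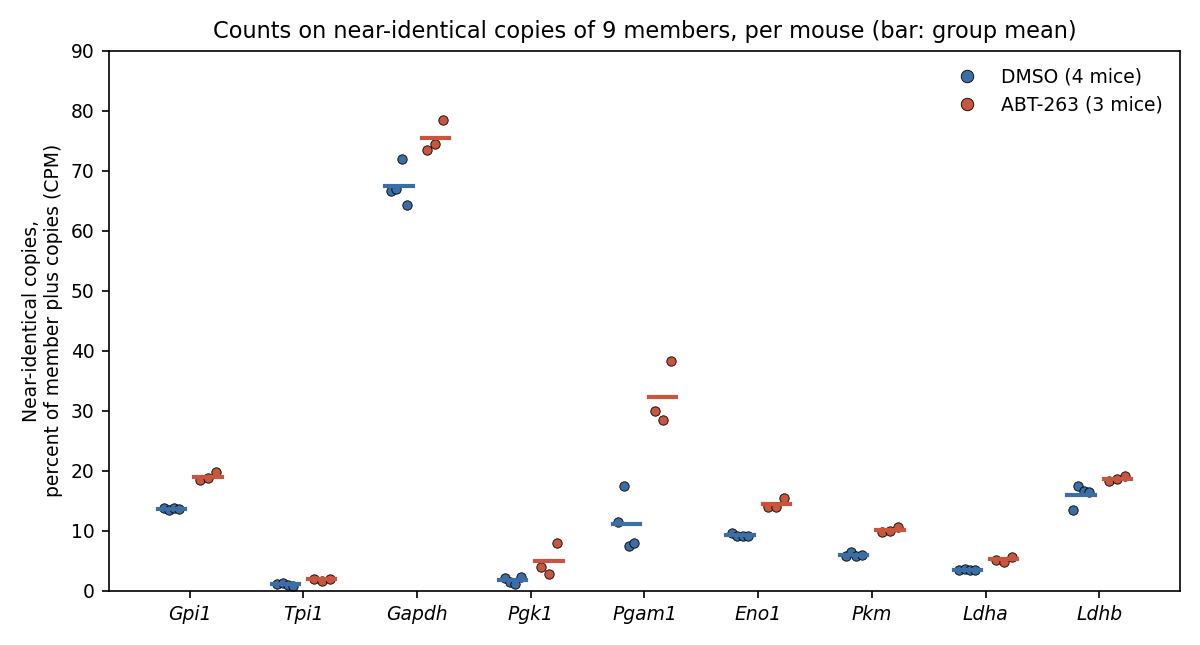
Share of near-identical copies in the summed CPM of a gene and its copies (y axis, percent) for the 9 genes that have any, per mouse (points) with group means (bars). In each gene the 3 ABT-263 points lie above the 4 DMSO points, as in Pgam1, at 28.4% or more against 17.4% or less.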

How the data were processed

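The authors aligned reads to mm10 with STAR 2.7.9a and counted uniquely aligned proper pairs on the same strand per Ensembl gene with featureCounts (Subread 1.6.2), without mitochondrial genes. The deposited counts are not normalized. The deposited log2-scale values are the authors' variance-stabilizing transformation by DESeq2 1.23.10 and served as an alternative only. Symbols and positions came from GENCODE M21 (GRCm38), which holds 55190 of the 55450 identifiers and differs from the build named by the authors.

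Counts were tested with edgeR 4.0.16 (quasi-likelihood, TMM, filterByExpr, robust) in R 4.3.3 with Benjamini-Hochberg adjustment over 17959 genes, tested on simulated data beforehand. The standard error is the log2 fold change divided by the square root of F. Isoform ratios used exact permutation over 35 assignments of the 7 mice. Copies were found with BLAST 2.17.0. Depth was 20344364 to 43562330 counts per library. Promoters are RefSeq's.

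All members, lists and tests were chosen with earlier results of these data known. Values per mouse are given for the isoforms compared, their partners and members past the threshold. Other lists give at most 3 defining or smallest-p genes in each direction, and for muscle also Acta1, Ckm, Tnnc2 and Myh4. Mb, Tnni2, Tnnt3, Ttn, Krt14, S100a8, S100a9, Mmp8, Camp, Ly6g, Csf3r, Retnlg, Cxcr2 and the copies were chosen after their values were seen. Aldoa has a second identifier with 2 to 23 counts per library, not used. Other settings tried were a Wald test (DESeq2 1.42.0), its size factors, 2 other count filters, protein-coding genes, limma 3.58.1 on the stabilized values and leaving out each mouse. Added after seeing the data were copies summed into members, length and GC trends removed (mgcv 1.9.3), the 9 ratios of muscle genes and each mouse left out for the lists.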

Additional observations from a re-analysis of the deposited data

Results flagged for a closer look

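In the group of 4 DMSO controls, 7 of 65 measures had 1 mouse set apart from the other 3, where chance sets apart about 1 in 20 groups. The share of the group's range taken by the gap to the nearest mouse is given for each, and the 3 ABT-263-treated mice are too few for such a check. Control 480 stood apart in 4 measures: it was high for Pfkp (0.834 of the range) and Aldoc (0.836), and low for Gbe1 (0.887) and for the ratio of Eno3 to Eno1 (0.842). Control 483 was high for Gapdh (0.865). Control 481 was low for Pkm (0.843) and high for the share of the copies of Ldha (0.965), at 3.65% beside 3.40% to 3.41% in the other controls. With control 480 left out, Slc2a1 and Hk1 passed as higher and Hk3, Pfkfb3 and Pygl no longer did.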

How the results depend on the processing

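The 7 higher and 1 lower member became 2 to 6 and 0 to 1 when 1 mouse was left out. Fits without control 481, 482 or 483 or treated mouse 476 left 3, 2, 2 and 3 higher, and Pgam2 was not called without control 482 or mouse 476. Over all genes, 1735 to 4169 then passed, beside 4342 with all mice, so calls were fewer in the members and in all genes alike. Pgam1 and Pgm2 passed in all 7 of these fits. Testing every gene with a count gave 4 higher members, as did limma on the variance-stabilized values (Slc2a3, Pfkp, Pgam1 and Pgm2 in both). The DESeq2 Wald test gave 2 lower members (Pgam2 and Gpi1) and gave no adjusted p for Hk3, and removing length and GC trends also gave 2 lower and left 5 higher, without Pfkfb3 and Pygl. The muscle isoforms passed as lower in 0 to 1 cases without 1 mouse. The ubiquitous or hypoxia-responsive isoforms passed as higher in 0 to 2 cases without 1 mouse and in 2 by the Wald test (Pfkp and Slc2a1), and their median was 0.44 to 0.83. The median of the muscle isoforms was -0.71 to -0.31. No called member changed direction in any setting. The cause of these differences was not tested. No paired analysis was possible because the mouse numbers of the groups differ. Genes below about 10 CPM in the controls, such as Pgam1, Hk3 and Slc2a3, rest on the fewest counts there, from 53 per library.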
